A study of Mus musculus with 36 samples.

Results

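Transcripts of 9 genes that encode subunits and inhibitors of the transcription factor NF-kB were followed in mouse skeletal muscle stem cells (MuSCs, or satellite cells, the cells that rebuild injured fibres). The members were the rows of the expression table whose symbol is Nfkb1, Nfkb2, Rela, Relb, Nfkbia, Nfkbie, Nfkbiz, Tnfaip3 or Bcl3. All 9 were present, of 11337 genes in all. Nfkb1, which encodes p105 and its product p50, was higher in old than in young MuSCs in each age comparison, by 2.04-fold to 2.15-fold. It was lower in old mice whose running wheel turned freely than in old mice whose wheel was locked, by 1.49-fold. In young mice it was 1.48-fold lower with a free wheel, which did not pass (adjusted p = 0.0636 by limma). The wheel effect on Nfkb1 was not called different between the ages. Relb was also higher in old MuSCs in each age comparison, whereas Rela passed no test. Among mice with a wheel, 38.2% to 38.3% of all genes were called between ages. The age comparison within the Ccnd1 cohort, described below, is no independent repeat. There the calls of Nfkb1 and Relb were lost when most single libraries were left out.

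RNA from 36 male mice, 1 library per mouse, was primed with oligo(dT) and sequenced in pairs. In the wheel cohort, C57BL/6 mice (spelled C56BL/6 in the labels) lived for 3 weeks with a wheel that turned freely, giving the groups O(+Ex) at 18 months (n = 5) and Y(+Ex) at 3 months (n = 3). Their counterparts had a locked wheel, giving O(-Ex) at 18 months (n = 7) and Y(-Ex) at 3 months (n = 6). These MuSCs were sorted as VCAM+ cells negative for CD31, CD45, Sca1 and DAPI. In the Ccnd1 cohort all mice, the WT ones included, carried Pax7_CreERT2 and R26R_YFP, and all received tamoxifen, so recombination was driven only in cells with Pax7 promoter activity. The groups were O(WT) at 18 months (n = 3, Ccnd1 +/+), Y(KO) at 3 months (n = 5, Ccnd1 flox/flox), Y(HET) at 3 months (n = 4, Ccnd1 +/flox) and Y(WT) at 3 months (n = 3, Ccnd1 +/+). YFP+ DAPI- cells were sorted 6 weeks after tamoxifen.

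NF-kB is a dimer of Rel proteins. RelA with p50 is the usual effector of the canonical arm, in which the IKK kinase complex marks inhibitor (IkB) proteins for destruction and so releases the dimer to the nucleus. RelB with p52, the product of the p100 precursor encoded by Nfkb2, is the effector of the non-canonical arm, which depends on the kinase NIK. Several inhibitors are themselves NF-kB target genes and close a negative feedback loop. In muscle, NF-kB activity is known for its links to wasting, inflammation and the restraint of myogenic differentiation. The activity of NF-kB lies mainly in protein location and modification, which transcript levels do not show.

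The 250 bases upstream of the annotated transcription start are printed for 3 members as an aid to what such feedback rests on, because each holds a match to the kappa B consensus, the decamer bound by NF-kB dimers. The promoter sequences are those of RefSeq (build GRCm38.p6) and run from 5′ to 3′ on the gene's own strand, and capitals mark the letters that match the consensus on either strand, with overlapping matches merged. Nfkb2 is shown at the first of 3 listed starts (chr19:46304487-46304736, plus strand), Nfkbia at its 1 start (chr12:55492648-55492897, minus strand) and Tnfaip3 at the first of 2 (chr10:19015411-19015660, minus strand).
Nfkb2: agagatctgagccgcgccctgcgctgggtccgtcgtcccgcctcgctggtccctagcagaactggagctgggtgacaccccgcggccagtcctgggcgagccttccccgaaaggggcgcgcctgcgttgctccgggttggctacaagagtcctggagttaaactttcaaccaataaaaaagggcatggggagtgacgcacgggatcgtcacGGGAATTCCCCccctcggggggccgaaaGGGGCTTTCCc
Nfkbia: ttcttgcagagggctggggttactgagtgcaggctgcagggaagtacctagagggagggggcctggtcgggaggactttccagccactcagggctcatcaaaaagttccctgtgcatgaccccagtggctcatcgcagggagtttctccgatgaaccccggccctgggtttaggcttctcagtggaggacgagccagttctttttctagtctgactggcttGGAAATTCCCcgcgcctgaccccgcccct
Tnfaip3: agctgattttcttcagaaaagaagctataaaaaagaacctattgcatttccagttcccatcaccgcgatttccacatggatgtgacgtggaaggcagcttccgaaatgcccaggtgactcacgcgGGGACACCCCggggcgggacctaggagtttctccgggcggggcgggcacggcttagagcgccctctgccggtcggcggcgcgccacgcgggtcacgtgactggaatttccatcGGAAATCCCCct

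Promoter windows from 250 bases before to 50 bases after the start were listed for 6 of the 9 members. A match was found in 5 of these 6 (Nfkb2, Nfkbia, Nfkbie, Bcl3 and Tnfaip3) and in 7 of their 9 windows. Among all genes of the expression table with a window, 573 of 8859 (6.47%) held a match, and among their windows 611 of 11357 (5.38%). The Nfkbia match GGAAATTCCC began 29 bases before the start. The Nfkb2 window printed held 3 distinct matches, GGGAATTCCC and GGAATTCCCC, which overlap, and GGGGCTTTCC. The Tnfaip3 window held GGGACACCCC and GGAAATCCCC. Nfkbie had GGGGGATTCC at 106 bases before its start, and Bcl3 had GGGAAGTCCC just after its start. The Rela window held no run of letters that fits the consensus. A match is a feature of the sequence, and binding was not measured.

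The deposited values were read as RPKM (reads per kb of exon, scaled to library size), a unit inferred from the numbers. Comparisons of levels between genes rest on that reading, and how the values were adjusted is not known. Sums of RPKM ranged from 273837 to 350969 per library, but read depth per library is unknown, so no counting interval is given. Between the libraries, 6 of 35 possible directions of variation were absent from the log2 values, and the controls of both cohorts had become nearly equal: no gene reached an unadjusted p under 0.05 in O(WT) against O(-Ex) or in Y(WT) against Y(-Ex) by limma, where 567 are expected. Age in the Ccnd1 cohort is therefore no independent repeat of age in the wheel cohort. Ccnd1, the gene deleted, averaged 2.71 ± 0.495 RPKM in Y(KO), 7.18 ± 0.723 RPKM in Y(HET) and 11.7 ± 1.40 RPKM in Y(WT) (SD, n = 5, 4 and 3). The deposited values hold no zeros, so presence in a library tells nothing about cell identity. All 11 satellite cell markers of the list used were found, and Pax7 lay at 14.2 to 32.5 RPKM. Pecam1 (CD31) and Ly6a (Sca1), against whose proteins the wheel cohort was sorted, lay at 9.11 to 28.8 RPKM and at 40.4 to 120.2 RPKM. Ptprc (CD45), against whose protein it was sorted too, was among the haematopoietic markers not found.

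Nfkbia, which encodes the IkB alpha protein that holds NF-kB in the cytoplasm, had by far the highest level of the 9, with a mean of 1572 RPKM over 36 libraries. Its mean exceeded that of 99.85% of genes in the table. Rela, which encodes the p65 subunit, followed at a mean level of 210.1 RPKM and Nfkb2 at 117 RPKM. Next came the nuclear IkB protein gene Nfkbiz at 87.4 RPKM, Nfkbie (IkB epsilon) at 85.6 RPKM and Bcl3, a nuclear IkB-like coactivator of p50 and p52 dimers, at 78.2 RPKM. Relb had a mean level of 66.3 RPKM and Nfkb1 of 62.5 RPKM. Tnfaip3, which encodes the ubiquitin-editing enzyme A20, was lowest at 33.0 RPKM.

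**Figure D1:**
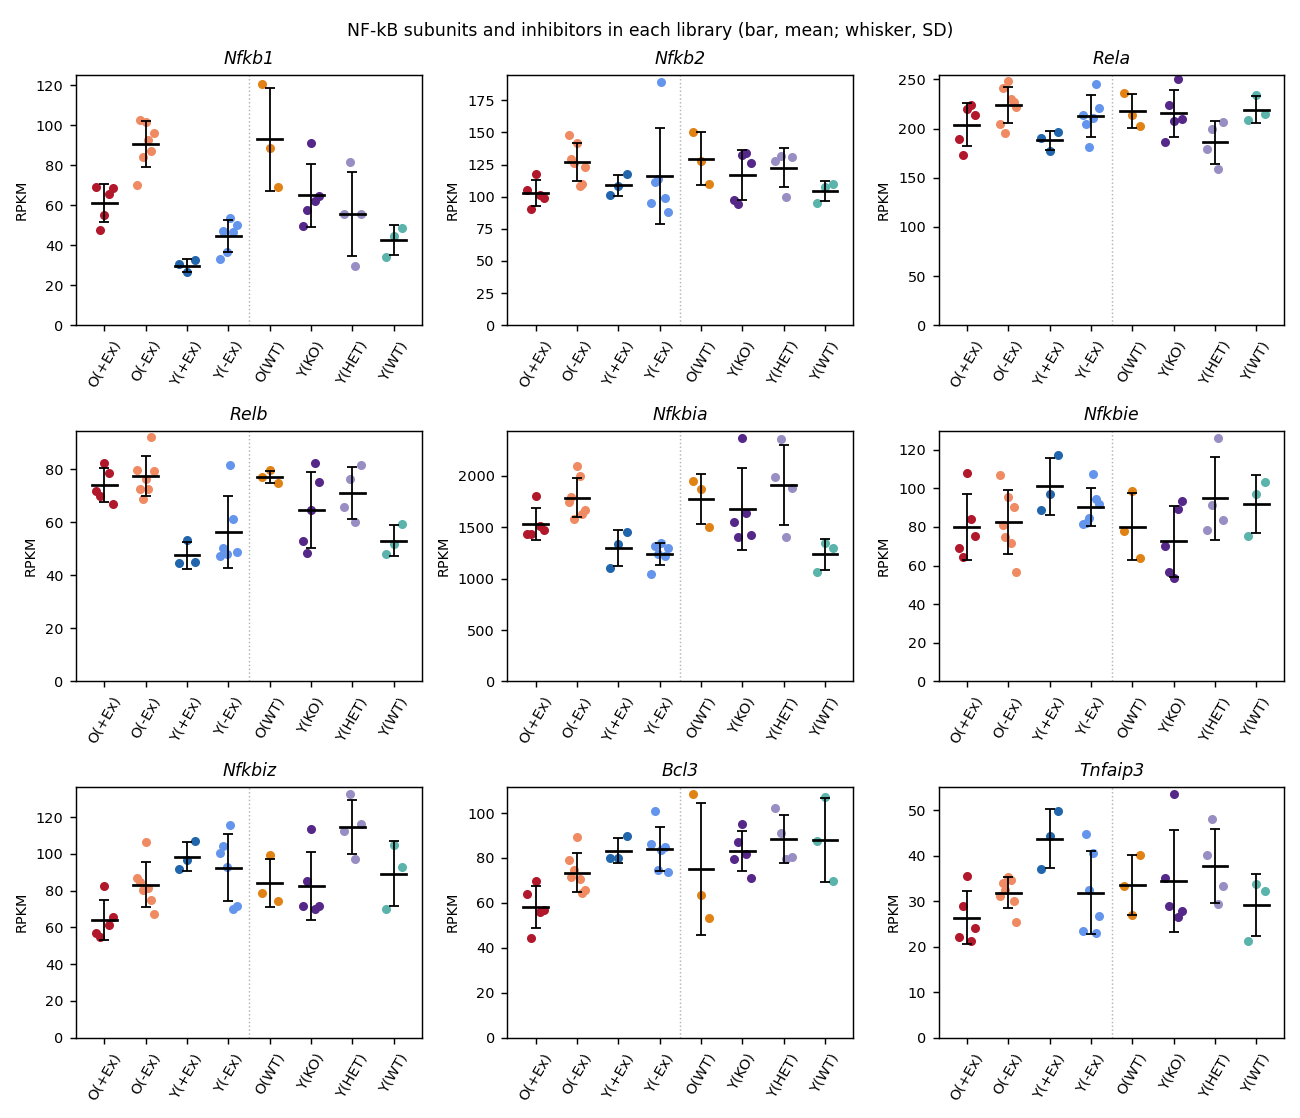
RPKM of each NF-kB gene (y axis) in every library of the 8 groups (x axis; dotted line between the wheel and the Ccnd1 cohort), with the mean as a bar and the SD as a whisker. Nfkb1 lies between 69.9 and 103 RPKM in O(-Ex) and between 33.3 and 53.7 RPKM in Y(-Ex), while Rela keeps to a range of 159 to 250.4 RPKM over all libraries.

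Age with a locked wheel asked how MuSCs of sedentary old mice differ from those of sedentary young mice. Of the 9 members 3 were higher in O(-Ex) than in Y(-Ex) and none lower at an adjusted p under 0.05 by limma, where 38.3% of all genes were called, 20.5% higher and 17.8% lower. Nfkb1 ranged from 69.9 to 103 RPKM in O(-Ex) with a median of 92.7, against 33.3 to 53.7 RPKM in Y(-Ex) with a median of 46.9. Every old library lay above every young one, a separation seen for 12.4% of all genes. The means were 90.7 ± 11.5 RPKM in O(-Ex) and 44.6 ± 7.96 RPKM in Y(-Ex) (SD, n = 7 and 6), a log2 difference of 1.03 ± 0.12 (SE) with an adjusted p of 9.61e-07.

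Relb, the subunit of the non-canonical arm, ranged from 68.6 to 92.0 RPKM in O(-Ex) with a median of 76.4, against 47.2 to 81.7 RPKM in Y(-Ex) with a median of 49.4. A single Y(-Ex) library, replicate 4, reached into the range of the old ones. The log2 difference was 0.48 ± 0.11 (SE, adjusted p = 0.00108). Nfkbia ranged from 1584 to 2097 RPKM in O(-Ex) with a median of 1749, against 1049 to 1342 RPKM in Y(-Ex) with a median of 1268. The groups did not overlap, and the log2 difference was 0.52 ± 0.08 (SE, adjusted p = 4.48e-05).

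The other 6 members did not pass in this comparison. Rela averaged 224 ± 18.7 RPKM in O(-Ex) and 213 ± 21.1 RPKM in Y(-Ex), with an interval of the log2 difference of -0.08 to 0.23 (95%). Nfkb2 averaged 127 ± 14.7 RPKM in O(-Ex) and 116 ± 37.3 RPKM in Y(-Ex). The wide spread in Y(-Ex) came from replicate 4 at 189.5 RPKM, and without that library the log2 difference was 0.32 with an adjusted p of 0.00568. Bcl3 (73.5 ± 8.58 RPKM in O(-Ex), 83.9 ± 9.87 RPKM in Y(-Ex)), Nfkbiz (83.2 ± 12.2 and 92.5 ± 18.3 RPKM in the same order), Nfkbie (82.4 ± 16.6 and 90.3 ± 9.84 RPKM) and Tnfaip3 (31.9 ± 3.43 and 31.9 ± 9.09 RPKM) had overlapping groups.

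Old and young mice with a free wheel gave 2 members higher and 3 lower in O(+Ex) than in Y(+Ex), where 38.2% of all genes were called, 20.5% higher and 17.7% lower. Nfkb1 had 69.0, 47.5, 55.2, 65.6 and 68.4 RPKM in O(+Ex), against 30.4, 26.4 and 32.7 RPKM in Y(+Ex). All old libraries were above all young ones, and the log2 difference was 1.03 ± 0.15 (SE, adjusted p = 3.04e-05). Relb had 71.9, 69.7, 82.3, 78.5 and 67.0 RPKM in O(+Ex), against 44.4, 53.4 and 44.9 RPKM in Y(+Ex). These groups too did not overlap, with a log2 difference of 0.64 ± 0.14 (SE, adjusted p = 0.00114).

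The 3 members that were lower are feedback inhibitors or nuclear modulators. Tnfaip3 had 22.1, 29.0, 35.5, 21.3 and 24.2 RPKM in O(+Ex), against 37.1, 44.4 and 49.9 RPKM in Y(+Ex). The old libraries all lay below the young ones, and the log2 difference was -0.75 ± 0.20 (SE, adjusted p = 0.00479). Nfkbiz had 56.9, 54.8, 82.4, 61.4 and 65.4 RPKM in O(+Ex), against 91.9, 96.8 and 107 RPKM in Y(+Ex). It also had no overlap, at a log2 difference of -0.63 ± 0.16 (SE, adjusted p = 0.00339). Bcl3 had 63.8, 44.6, 69.5, 55.9 and 56.6 RPKM in O(+Ex), against 79.9, 80.2 and 89.9 RPKM in Y(+Ex). No value was shared between the ranges, and the log2 difference was -0.53 ± 0.12 (SE, adjusted p = 0.00203). The 5 called members were also those whose groups did not overlap, which held for 40.5% of all genes in this comparison.

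Nfkbia had 1435, 1432, 1802, 1515 and 1473 RPKM in O(+Ex), against 1107, 1341 and 1453 RPKM in Y(+Ex). The groups overlapped, and the log2 difference of 0.24 ± 0.11 (SE) did not pass (adjusted p = 0.0837). Nfkbie averaged 80.2 ± 17.1 RPKM in O(+Ex) and 101 ± 14.6 RPKM in Y(+Ex) (adjusted p = 0.109). Rela averaged 204 ± 21.9 RPKM in O(+Ex) and 188 ± 9.69 RPKM in Y(+Ex) (adjusted p = 0.397), and Nfkb2 103 ± 9.82 RPKM in O(+Ex) and 109 ± 8.21 RPKM in Y(+Ex) (adjusted p = 0.717). In both age comparisons of the wheel cohort the Rela level thus overlapped between ages, so that Nfkb1 relative to Rela was 0.404 ± 0.033 in O(-Ex) and 0.21 ± 0.035 in Y(-Ex). With a free wheel this ratio was 0.3 ± 0.043 in O(+Ex) and 0.158 ± 0.009 in Y(+Ex).

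**Figure D2:**
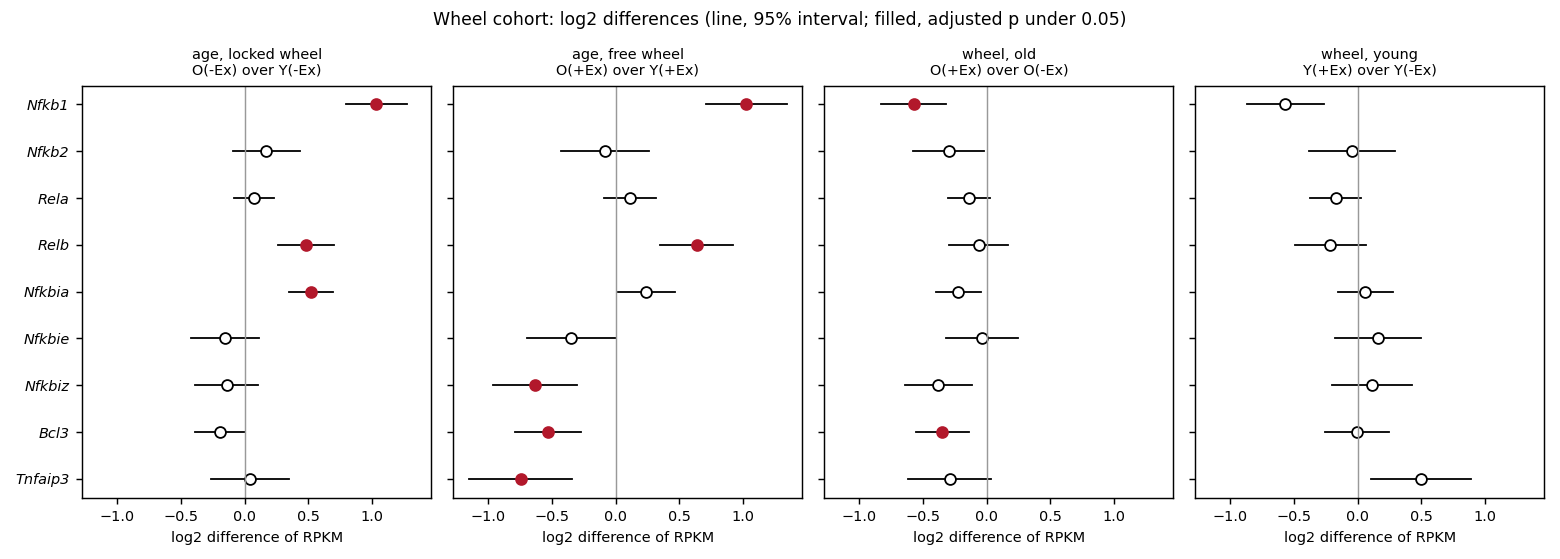
Log2 difference of RPKM (x axis) of the 9 members (y axis) in the 4 comparisons of the wheel cohort, as a point with its 95% interval, filled where the adjusted p by limma was under 0.05. Nfkb1 is at 1.03 in both age comparisons and at -0.57 in both wheel comparisons, of which the one in young mice is open.

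Marker genes of other cells and of the sort were called with age as well. Of all genes 20.5% were called higher and 17.8% lower with a locked wheel, and 20.5% and 17.7% with a free wheel. Of 14 genes of the response to tissue dissociation, 9 were lower in O(-Ex) than in Y(-Ex) and 11 lower in O(+Ex) than in Y(+Ex), and none was higher. Their summed level was 6251 to 8230 RPKM in O(-Ex) and 8837 to 10794 RPKM in Y(-Ex), and 5662 to 7619 RPKM in O(+Ex) and 9643 to 10776 RPKM in Y(+Ex). Fibro-adipogenic markers were higher in 4 of 9 cases with a locked wheel (summed level 366 to 427 RPKM in O(-Ex), 226 to 279.6 RPKM in Y(-Ex)) and in 5 of 9 with a free wheel (337 to 404 RPKM in O(+Ex), 213 to 248 RPKM in Y(+Ex)). Endothelial markers were higher in 3 of 10 with a locked wheel (126 to 189 RPKM in O(-Ex), 109.7 to 165 RPKM in Y(-Ex)) and in 6 of 10 with a free wheel (180.1 to 259.6 RPKM in O(+Ex), 118 to 146 RPKM in Y(+Ex)). Myofibre markers were lower in 3 of 8 (53.9 to 186 RPKM in O(-Ex), 131 to 682 RPKM in Y(-Ex)) and in 6 of 8 (49.2 to 147 RPKM in O(+Ex), 216 to 409 RPKM in Y(+Ex)). Satellite cell markers were lower in 5 and higher in 1 of 11 with a locked wheel (2661 to 3681 RPKM in O(-Ex), 2612 to 3403 RPKM in Y(-Ex)), and lower in 6 and higher in 1 with a free wheel (2253 to 3133 RPKM in O(+Ex), 2958 to 3172 RPKM in Y(+Ex)). Of 11 haematopoietic markers found of 15, 1 was higher with a locked wheel and 1 lower with a free wheel. The part of these lists in the age differences of the NF-kB genes was not tested, and in bulk RNA fewer cells of a type and less RNA per cell cannot be told apart.

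The free wheel in old mice asked what 3 weeks of voluntary running change in aged MuSCs. All 9 members had a negative log2 difference between O(+Ex) and O(-Ex), with a median of -0.29 beside -0.0082 over all genes. The 95% intervals of Nfkbie, Relb, Rela and Tnfaip3 included 0. Since some members varied together between libraries, the 9 signs are not separate observations. Of the members 2 passed the test, where 7.39% of all genes were called, 4.09% higher and 3.3% lower. Nfkb1, with the values given above, averaged 61.1 ± 9.45 RPKM in O(+Ex) and 90.7 ± 11.5 RPKM in O(-Ex) (SD, n = 5 and 7). The highest O(+Ex) library (69.0 RPKM) was just below the lowest O(-Ex) library (69.9 RPKM), and 3.94% of all genes had groups apart in this comparison. The log2 difference was -0.57 ± 0.12 (SE, adjusted p = 0.00866 by limma). Of the O(+Ex) libraries only replicate 2, at 47.5 RPKM, lay within the Y(-Ex) range of 33.3 to 53.7 RPKM, and the others lay above it. The Y(-Ex) mean was 44.6 RPKM, and this pair of groups was not tested.

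Bcl3 ranged from 44.6 to 69.5 RPKM in O(+Ex) and from 64.2 to 89.3 RPKM in O(-Ex). The ranges overlapped, and the log2 difference of -0.35 ± 0.10 (SE) had an adjusted p of 0.038. This call rests on single libraries and on the model: it was lost without O(+Ex) replicate 2, 4 or 5 or O(-Ex) replicate 1, 2, 3, 4 or 5, with adjusted p-values of 0.0271 to 0.122 over the alternatives. It was also lost with all 36 libraries in 1 fit, with only the compared groups, and with the variance trend and the robust setting both left off. Nfkbiz averaged 64.2 ± 11.0 RPKM in O(+Ex) and 83.2 ± 12.2 RPKM in O(-Ex), a log2 difference of -0.38 ± 0.13 (SE) that did not pass (adjusted p = 0.0696).

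Nfkbia averaged 1531 ± 155 RPKM in O(+Ex) and 1787 ± 192 RPKM in O(-Ex) (adjusted p = 0.118), and Nfkb2 103 ± 9.82 RPKM in O(+Ex) and 127 ± 14.7 RPKM in O(-Ex) (adjusted p = 0.18). Tnfaip3 averaged 26.4 ± 5.89 RPKM in O(+Ex) and 31.9 ± 3.43 RPKM in O(-Ex) (adjusted p = 0.27). Rela (204 ± 21.9 RPKM in O(+Ex), 224 ± 18.7 RPKM in O(-Ex)), Relb (73.9 ± 6.38 and 77.3 ± 7.59 RPKM in the same order) and Nfkbie (80.2 ± 17.1 and 82.4 ± 16.6 RPKM) had overlapping groups and did not pass (adjusted p = 0.304, 0.783 and 0.905). Endothelial markers moved with the wheel too, 3 of 10 being higher in O(+Ex), beside 4.09% of all genes. Their summed levels were 180.1 to 259.6 RPKM in O(+Ex) and 126 to 189 RPKM in O(-Ex). Of the satellite cell markers 1 of 11 and of the dissociation genes 1 of 14 were lower, beside 3.3% of all genes. No haematopoietic, fibro-adipogenic or myofibre marker was called. The haematopoietic median log2 difference was 0.39 beside -0.0082 over all genes, and the part of these lists was not tested. The wheel comparison in old mice and the age comparison with a locked wheel share the O(-Ex) libraries, so their values are not independent.

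In young mice the free wheel gave no call among the 9 members, where 1.12% of all genes were called (0.406% higher, 0.714% lower). Nfkb1 averaged 29.8 ± 3.21 RPKM in Y(+Ex) and 44.6 ± 7.96 RPKM in Y(-Ex). Each Y(+Ex) library was below the lowest Y(-Ex) library of 33.3 RPKM, a separation found for 9.55% of all genes. The log2 difference of -0.57 ± 0.15 (SE) had an adjusted p of 0.0636. Without Y(-Ex) replicate 1 or 3 it passed (lowest adjusted p 0.0232, range up to 0.33). Tnfaip3 averaged 43.8 ± 6.42 RPKM in Y(+Ex) and 31.9 ± 9.09 RPKM in Y(-Ex), with overlapping groups and a log2 difference of 0.50 ± 0.19 (SE, adjusted p = 0.192). The remaining 7 members lay between -0.21 (Relb) and 0.16 (Nfkbie) on the log2 scale.

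A test of whether the wheel acted differently at the 2 ages called none of the 9 members, where 0.00882% of all genes (1 gene) were called higher and 0% lower. The largest difference was that of Tnfaip3, at -0.79 ± 0.25 on the log2 scale (SE, unadjusted p = 0.00403, adjusted p = 0.429). For Nfkb1 the wheel effects differed by -0.0066 ± 0.19, with an interval of -0.40 to 0.39 (95%).

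In the Ccnd1 cohort, old against young WT cells gave 2 members higher and none lower in O(WT), where 15.8% of all genes were called, 8.03% higher and 7.76% lower. Nfkb1 had 121, 88.8 and 69.3 RPKM in O(WT), against 34.2, 44.7 and 48.6 RPKM in Y(WT). The ranges were apart, and the log2 difference was 1.11 ± 0.31 (SE, adjusted p = 0.0291). Relb had 77.0, 79.5 and 74.8 RPKM in O(WT), against 47.9, 51.7 and 59.5 RPKM in Y(WT). Again no ranges met, with a log2 difference of 0.55 ± 0.18 (SE, adjusted p = 0.0478). With 3 mice per group these calls are fragile: leaving out any 1 of the 6 libraries ended the call of Relb, and leaving out any but O(WT) replicate 3 ended that of Nfkb1, with adjusted p-values up to 0.134 and 0.0997.

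Nfkbia had 1947, 1872 and 1501 RPKM in O(WT), against 1067, 1347 and 1302 RPKM in Y(WT), without overlap, and its log2 difference of 0.52 ± 0.22 (SE) did not pass (adjusted p = 0.115). It passed with all 36 libraries in 1 fit (adjusted p = 0.0312), and the range over its alternatives was 0.0312 to 0.281. Nfkb2 averaged 129.6 ± 20.3 RPKM in O(WT) and 104 ± 7.68 RPKM in Y(WT) (adjusted p = 0.213), also without overlap. Groups that do not overlap were common here, at 37% of all genes. Rela averaged 218 ± 17.2 RPKM in O(WT) and 219 ± 13.6 RPKM in Y(WT). Bcl3 was the most variable in O(WT), at 108, 63.5 and 53.3 RPKM, against 87.4, 107 and 69.6 RPKM in Y(WT). Nfkbie (80.1 ± 17.4 RPKM in O(WT), 91.8 ± 14.9 RPKM in Y(WT)), Nfkbiz (84.2 ± 13.2 and 89.2 ± 17.7 RPKM in the same order) and Tnfaip3 (33.6 ± 6.56 and 29.1 ± 6.84 RPKM) overlapped between ages. Marker genes were called with age here too, beside 8.03% of all genes higher and 7.76% lower. Of the dissociation genes 3 of 14 were lower (summed level 6500.4 to 7570.0 RPKM in O(WT), 8092 to 10129.6 RPKM in Y(WT)). Of the fibro-adipogenic markers 2 of 9 were higher (370.4 to 496 RPKM in O(WT), 231 to 257 RPKM in Y(WT)), and both sums were without overlap. Of the endothelial markers 2 of 10 were higher (154 to 166 RPKM in O(WT), 105 to 158 RPKM in Y(WT)) and of the satellite cell markers 2 of 11 lower (2673 to 3224 RPKM in O(WT), 2684 to 3325 RPKM in Y(WT)). No myofibre or haematopoietic marker was called, and the part of these lists in the result was not tested.

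Loss of Ccnd1 in young MuSCs asked how MuSCs fare without cyclin D1, which drives entry into the cell cycle. None of the 9 members passed in Y(KO) against Y(WT), where 6.99% of all genes were called (5.05% higher, 1.94% lower). Nfkb1 had 49.5, 57.5, 91.0, 62.0 and 64.4 RPKM in Y(KO), against 34.2, 44.7 and 48.6 RPKM in Y(WT). Every KO library lay above every WT library, and the log2 difference of 0.60 ± 0.28 (SE) had an adjusted p of 0.195. Nfkbia had 1553, 1400.5, 2371, 1638 and 1423 RPKM in Y(KO), against 1067, 1347 and 1302 RPKM in Y(WT). Here as well the groups were apart, with a log2 difference of 0.42 ± 0.19 (SE, adjusted p = 0.191). Groups without overlap made up 17.8% of all genes in this comparison. Of the endothelial markers 1 of 10 was higher in Y(KO), and no marker of the other lists was called. The summed fibro-adipogenic level was 269 to 312 RPKM in Y(KO) and 231 to 257 RPKM in Y(WT), without overlap. The part of these lists was not tested.

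Relb averaged 64.7 ± 14.3 RPKM in Y(KO) and 53.0 ± 5.88 RPKM in Y(WT) (adjusted p = 0.312), and Nfkbie 72.6 ± 18.3 RPKM in Y(KO) and 91.8 ± 14.9 RPKM in Y(WT) (adjusted p = 0.299). Rela averaged 216 ± 23.7 RPKM in Y(KO) and 219 ± 13.6 RPKM in Y(WT), with an interval of the log2 difference of -0.27 to 0.21 (95%). Nfkb2 (117 ± 19.5 RPKM in Y(KO), 104 ± 7.68 RPKM in Y(WT)), Nfkbiz (82.4 ± 18.5 and 89.2 ± 17.7 RPKM in the same order), Bcl3 (82.9 ± 8.91 and 88.1 ± 18.8 RPKM) and Tnfaip3 (34.4 ± 11.2 and 29.1 ± 6.84 RPKM) had overlapping groups.

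Deletion of 1 copy gave no call either, where 5.39% of all genes were called (1.98% higher, 3.4% lower). Nfkbia had 1991, 2357, 1409 and 1876 RPKM in Y(HET), against 1067, 1347 and 1302 RPKM in Y(WT). All HET libraries were above all WT libraries, with a log2 difference of 0.61 ± 0.20 (SE, adjusted p = 0.09). Nfkbia passed with all 36 libraries in 1 fit (adjusted p = 0.0198) and without Y(HET) replicate 3. Relb had 65.9, 76.1, 60.1 and 81.5 RPKM in Y(HET), against 47.9, 51.7 and 59.5 RPKM in Y(WT). The ranges did not meet, and the log2 difference was 0.41 ± 0.16 (SE, adjusted p = 0.146). Rela had 179, 200.1, 159 and 207 RPKM in Y(HET), against 209, 234 and 214 RPKM in Y(WT). It was the only member with all HET libraries below all WT libraries (log2 difference -0.24 ± 0.12, SE, adjusted p = 0.241). Groups without overlap made up 21.2% of all genes here. Of the endothelial markers 1 of 10 was higher and of the satellite cell markers 2 of 11 were lower in Y(HET). No marker of the other lists was called, and the part of these lists was not tested.

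Nfkbiz had 112, 133, 97.1 and 116 RPKM in Y(HET), against 70.02, 105 and 92.7 RPKM in Y(WT). Each HET library was above the WT mean although the ranges overlapped, and the log2 difference was 0.37 ± 0.18 (SE, adjusted p = 0.234). Nfkb1 had 55.7, 81.6, 29.7 and 55.5 RPKM in Y(HET), the widest spread of that gene in any young group, against 34.2, 44.7 and 48.6 RPKM in Y(WT) (adjusted p = 0.543). Nfkb2 averaged 122 ± 15.0 RPKM in Y(HET) and 104 ± 7.68 RPKM in Y(WT) (adjusted p = 0.391), and Tnfaip3 37.8 ± 8.20 RPKM in Y(HET) and 29.1 ± 6.84 RPKM in Y(WT) (adjusted p = 0.373). Bcl3 (88.4 ± 10.7 RPKM in Y(HET), 88.1 ± 18.8 RPKM in Y(WT)) and Nfkbie (94.9 ± 21.6 and 91.8 ± 14.9 RPKM in the same order) differed by far less than their SD.

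Against Y(HET), none of the 9 members passed in Y(KO), where 6.04% of all genes were called (5.15% higher, 0.891% lower). Nfkbiz had 71.5, 85.5, 114, 69.9 and 71.7 RPKM in Y(KO), against 112, 133, 97.1 and 116 RPKM in Y(HET). A single KO library, replicate 3, reached into the HET range, while 10.1% of all genes had groups apart, and the log2 difference was -0.49 ± 0.16 (SE, adjusted p = 0.0794). It passed without that library and with all 36 libraries in 1 fit (adjusted p = 0.0457). Nfkbie averaged 72.6 ± 18.3 RPKM in Y(KO) and 94.9 ± 21.6 RPKM in Y(HET) (log2 difference -0.40 ± 0.19, adjusted p = 0.239), and Rela 216 ± 23.7 RPKM in Y(KO) and 186 ± 21.6 RPKM in Y(HET) (0.21 ± 0.11, adjusted p = 0.241). The other 6 members lay between -0.19 (Nfkbia) and 0.28 (Nfkb1) on the log2 scale, and all had overlapping groups. The KO and HET comparisons with Y(WT) share the 3 WT libraries.

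**Figure D3:**
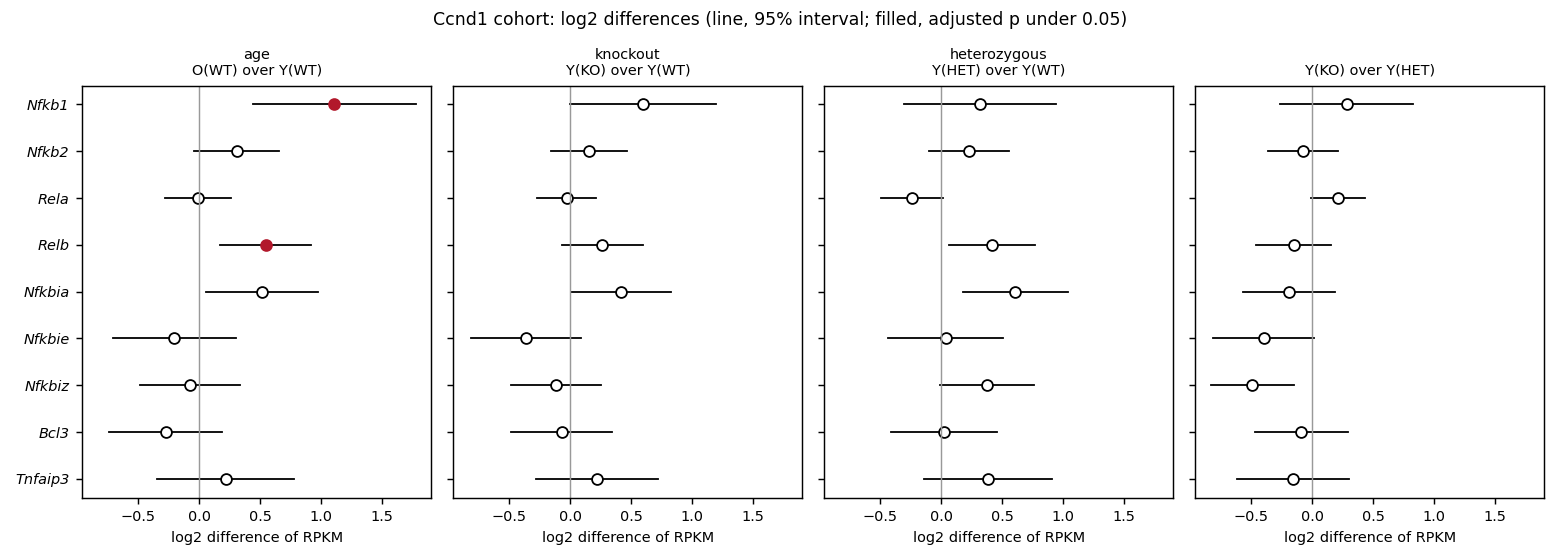
Log2 difference of RPKM (x axis) of the 9 members (y axis) in the 4 comparisons of the Ccnd1 cohort, as a point with its 95% interval, filled where the adjusted p by limma was under 0.05. Filled points are Nfkb1 at 1.11 and Relb at 0.55 in O(WT) over Y(WT), and every other point is open.

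**Figure D4:**
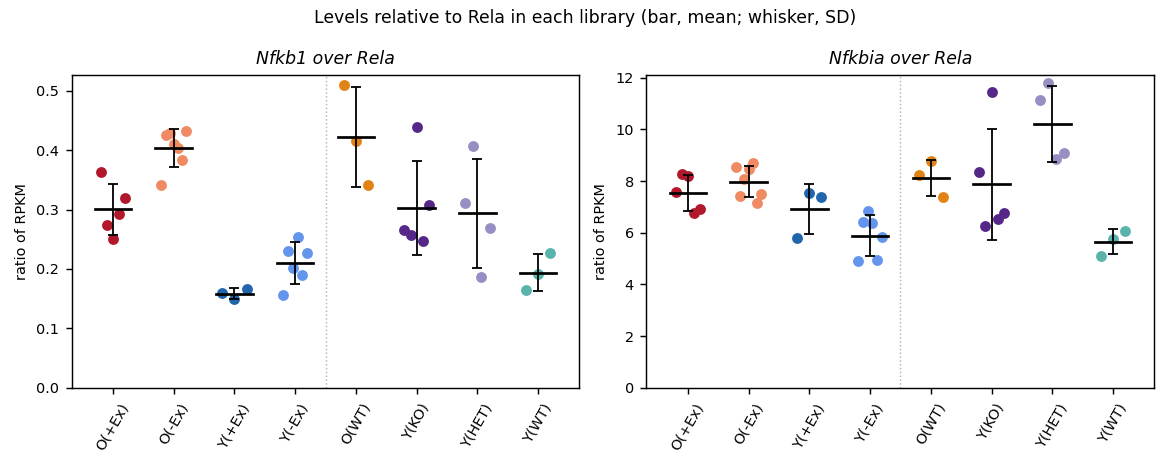
Ratio of the RPKM of Nfkb1 (left) and of Nfkbia (right) to that of Rela (y axes) in every library of the 8 groups (x axis; dotted line between the cohorts), with the mean as a bar and the SD as a whisker. The mean Nfkb1 ratio is 0.404 in O(-Ex) and 0.422 in O(WT), against 0.21 in Y(-Ex) and 0.194 in Y(WT), and the mean Nfkbia ratio is highest in Y(HET) at 10.2.

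Across the 8 groups, mean Nfkb1 was highest in O(WT) (92.9 ± 25.9 RPKM) and O(-Ex), then Y(KO), O(+Ex), Y(HET) (55.6 ± 21.2 RPKM), Y(-Ex), Y(WT) (42.5 ± 7.46 RPKM) and Y(+Ex). The ranges of neighbours in that order overlapped except those of Y(WT) and Y(+Ex), and the highest group mean was 3.11 times the lowest. For each of the other 8 members, all neighbours in the order of group means overlapped. The highest group mean was 1.20 times the lowest for Rela, 1.26 times for Nfkb2, 1.62 times for Relb and 1.54 times for Nfkbia. It was 1.79 times for Nfkbiz, 1.66 times for Tnfaip3, 1.52 times for Bcl3 and 1.39 times for Nfkbie. Mean Nfkb2, Nfkbiz, Bcl3 and Tnfaip3 were all lowest in O(+Ex), and mean Nfkb1 and Relb were both lowest in Y(+Ex).

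The libraries of one group also varied together for some members. After subtracting group means, Nfkb1 and Nfkbia correlated at r = 0.72 over 36 libraries, Nfkb2 and Relb at 0.68, and Tnfaip3 with both Nfkbia (0.68) and Nfkbiz (0.67). These coefficients are descriptions, since the libraries share the missing directions of variation and group sizes are small. Nfkbie had an r of -0.12 with Nfkb1, 0.05 with Nfkbia and 0.43 with Relb. Without subtraction, the 3 genes most like Nfkbia over 36 libraries were the chemokine Ccl2 (r = 0.86), the cytokine Il6 (0.84) and the chemokine Cxcl1 (0.83). Nfkb1 was most like Yrdc (0.91), Sfpq (0.91) and Itgav (0.90), Relb most like Mapkapk3 (0.83), Cd44 (0.82) and Polr3d (0.81), and Rela most like Trim44 (0.77), Sulf1 (0.75) and Ubxn4 (0.75).

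Among the inhibitors, Nfkbiz was most like the RNase gene Zc3h12a (0.85), Map3k8 (0.80) and Kctd10 (0.78), and Tnfaip3 most like Nfkbiz (0.70), Jade2 (0.69) and Foxo1 (0.67). Bcl3 was most like S1pr3 (0.86), Susd6 (0.84) and Il4ra (0.81), and Nfkbie most like Arpin (0.77), Birc3 (0.76) and Stxbp3 (0.75). Nfkb2 was most like Psd (0.77), Sod2 (0.73) and Mgat2 (0.70). Psd shares 299 exon bases with Nfkb2 on the opposite strand, and since no source used here states the strand setting of the counting, reads of the 2 genes may not be told apart. Bcl3 likewise shares 161 exon bases with an antisense gene. In the authors' deposited table the correlation coefficient with Ccnd1 was -0.42 for Nfkb1, -0.38 for Nfkbia and 0.33 for Nfkbie, and between -0.31 and -0.0064 for the other 6 members.

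Other components of the pathway were described from a list of 52 genes without the 9 members, 48 of them found. With a locked wheel 7 were higher and 15 lower in O(-Ex) than in Y(-Ex), where 20.5% of all genes were called higher and 17.8% lower. The median log2 difference was -0.11 beside 0.0070 over all genes. With a free wheel 8 were higher and 13 lower in O(+Ex) than in Y(+Ex), where 20.5% of all genes were called higher and 17.7% lower. The median was -0.09 beside 0.01. Map3k14, which encodes NIK, averaged 8.48 ± 1.88 RPKM in O(-Ex) and 16.3 ± 0.385 RPKM in Y(-Ex) (log2 difference -0.97 ± 0.10, adjusted p = 4.35e-07). With a free wheel it averaged 7.62 ± 0.508 RPKM in O(+Ex) and 19.2 ± 2.21 RPKM in Y(+Ex) (log2 difference -1.33 ± 0.13, adjusted p = 5.64e-07). In the Ccnd1 cohort, whose age comparison is no independent repeat, Map3k14 was lower in O(WT) than in Y(WT) (8.61 ± 0.191 and 15.5 ± 0.573 RPKM, adjusted p = 0.0026 by limma). It was lower in Y(KO) than in Y(WT) as well (10.7 ± 1.80 and 15.5 ± 0.573 RPKM, adjusted p = 0.0252 by limma).

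Ikbkg, the regulatory subunit of the IKK complex, averaged 2.10 ± 0.172 RPKM in O(-Ex) and 2.85 ± 0.294 RPKM in Y(-Ex), and 1.85 ± 0.379 RPKM in O(+Ex) and 3.09 ± 0.471 RPKM in Y(+Ex), and was called lower at both. The IKK kinase genes Ikbkb and Chuk, the subunit Rel and the inhibitor Nfkbib passed in none of the 9 comparisons. Myd88, an adaptor of Toll-like and IL-1 receptors, was lower in O(-Ex) than in Y(-Ex) (log2 difference -0.36, adjusted p = 0.000339), while Irak3, an inhibitory member of that receptor arm, was higher (0.58, adjusted p = 0.00101). Tnfrsf12a, the TWEAK receptor, was higher in old cells with either wheel (log2 difference 0.32 for O(-Ex) over Y(-Ex) and 0.54 for O(+Ex) over Y(+Ex)). Rbck1 was higher and Rnf31 lower in O(+Ex) than in Y(+Ex) (0.57 and -0.68), and both encode subunits of the linear ubiquitin ligase.

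With the free wheel in old mice 4 of 48 components were higher and 3 lower, where 4.09% of all genes were called higher and 3.3% lower. Rbck1 (log2 difference 0.47) and Tab1 (0.93), a partner of the kinase TAK1, were higher in O(+Ex) than in O(-Ex), and Ripk1 (-0.50) and Birc2 (-0.42), both in the TNF receptor complex, were lower. Tab1 averaged 3.74 RPKM in O(+Ex) and 2.11 RPKM in O(-Ex), with overlapping groups. In young mice 1 was lower, beside 0.714% of all genes. It was Il1r1, the IL-1 receptor gene (22.2 ± 2.84 RPKM in Y(+Ex), 34.2 ± 5.57 RPKM in Y(-Ex), adjusted p = 0.048). For O(WT) over Y(WT) 2 were higher and 7 lower, where 8.03% of all genes were called higher and 7.76% lower. Otulin (0.97) and Irak2 (0.72, at 2.48 RPKM in O(WT) and 1.52 RPKM in Y(WT)) were higher. Map3k14 and Cyld (-0.54, at 1.99 and 2.89 RPKM in the same order) were among the lower. For Y(KO) over Y(WT) 2 were higher (Otulin at 0.92, Irak2 at 0.77) and 1 lower, where 5.05% of all genes were called higher and 1.94% lower. Irak2 averaged 2.63 RPKM in Y(KO) and 1.52 RPKM in Y(WT), with overlapping groups. For Y(HET) over Y(WT) 3 were higher and 3 lower, where 1.98% of all genes were called higher and 3.4% lower. Irak2 at 1.36 (3.89 RPKM in Y(HET), 1.52 RPKM in Y(WT)) and Malt1 at 0.79 (1.72 and 1.00 RPKM in the same order) were among the higher. Tlr4 at -0.65 (4.03 and 6.30 RPKM) and Irak4 at -0.86 (2.16 and 4.03 RPKM) were among the lower. For Y(KO) over Y(HET) 4 were higher, with Otulin at 0.69 and Tlr4 at 0.45, and 1 lower, where 5.15% of all genes were called higher and 0.891% lower. The lower one was the nuclear IkB gene Nfkbid (2.68 ± 0.705 RPKM in Y(KO), 4.35 ± 0.881 RPKM in Y(HET), adjusted p = 0.0392).

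A list of 38 known NF-kB target genes without the members, 35 of them found, had 16 higher and 2 lower in O(-Ex) than in Y(-Ex). Of all genes 20.5% were called higher and 17.8% lower there. The median log2 difference was 0.30 beside 0.0070 over all genes. This list and that of the components were chosen with earlier results of these data known. Their counts and medians are therefore descriptions and no test of NF-kB activity. Il6 averaged 114 ± 19.7 RPKM in O(-Ex) and 52.3 ± 10.2 RPKM in Y(-Ex) (log2 difference 1.12 ± 0.14, adjusted p = 3.91e-06), and the transcription factor gene Cebpb 549.7 ± 68.2 RPKM in O(-Ex) and 259 ± 83.4 RPKM in Y(-Ex) (1.14 ± 0.15, adjusted p = 9.17e-06). The list shares 5 genes with the list of components (Birc3, Nfkbid, Rel, Tnip1 and Traf1), 2 with the dissociation response (Ier3 and Junb), and Vcam1, whose protein was used in the sort. The 2 that were lower were Bcl2l1, a survival gene (-0.56), and Csf1, a macrophage growth factor (-0.34). With a free wheel 10 were higher and 6 lower in O(+Ex) than in Y(+Ex), where 20.5% of all genes were called higher and 17.7% lower. The median was 0.14 beside 0.01. The chemokine Cxcl10 (54.3 ± 6.68 RPKM in O(+Ex), 19.3 ± 6.40 RPKM in Y(+Ex)) and the adhesion receptor Cd44 (69.2 ± 6.95 and 34.3 ± 0.913 RPKM in the same order) were higher, and Zc3h12a (log2 difference -0.77) and Lif (-0.94) were lower.

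With the wheel in old mice 6 targets were lower and 1 higher in O(+Ex) than in O(-Ex), where 3.3% of all genes were called lower and 4.09% higher. The median was -0.21 beside -0.0082. Il6 averaged 72.6 ± 17.1 RPKM in O(+Ex) and 114 ± 19.7 RPKM in O(-Ex) (-0.66 ± 0.15, adjusted p = 0.0128), and Ier3 371 ± 35.1 RPKM in O(+Ex) and 480.0 ± 51.7 RPKM in O(-Ex) (-0.37 ± 0.08, adjusted p = 0.0127). The 1 that was higher was Tnf, at 5.48 ± 0.825 RPKM in O(+Ex) and 2.24 ± 1.13 RPKM in O(-Ex) (1.63 ± 0.47, adjusted p = 0.0403). In young mice 1 target passed, Cxcl5, lower in Y(+Ex) (33.8 ± 14.7 RPKM) than in Y(-Ex) (75.6 ± 26.0 RPKM), beside 0.714% of all genes lower. None of the list passed the test of the difference between the wheel effects.

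In the Ccnd1 cohort 5 targets were higher and none lower in O(WT) than in Y(WT), 4 higher and none lower in Y(KO) than in Y(WT), and 4 higher and none lower in Y(HET) than in Y(WT). Of all genes 8.03%, 5.05% and 1.98% were called higher in that order, and 7.76%, 1.94% and 3.4% lower. The medians were 0.41, 0.33 and 0.44 beside -0.0082, 0.02 and -0.06 over all genes. Il6 averaged 111 ± 4.40 RPKM in O(WT), 124 ± 37.3 RPKM in Y(KO), 133 ± 45.1 RPKM in Y(HET) and 51.4 ± 8.48 RPKM in Y(WT), and was called higher in each of the 3 comparisons with Y(WT), which share that group (adjusted p = 0.0143, 0.0132 and 0.0136). Lcn2 (2.30 ± 0.871 RPKM in Y(KO), 0.764 ± 0.388 RPKM in Y(WT)) and Zc3h12a (38.3 ± 2.60 RPKM in Y(HET), 20.3 ± 2.45 RPKM in Y(WT)) were among the others. For Y(KO) over Y(HET) none was higher and 2 were lower, Zc3h12a (-0.78) and Nfkbid (-0.71), beside 5.15% of all genes higher and 0.891% lower.

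**Figure D5:**
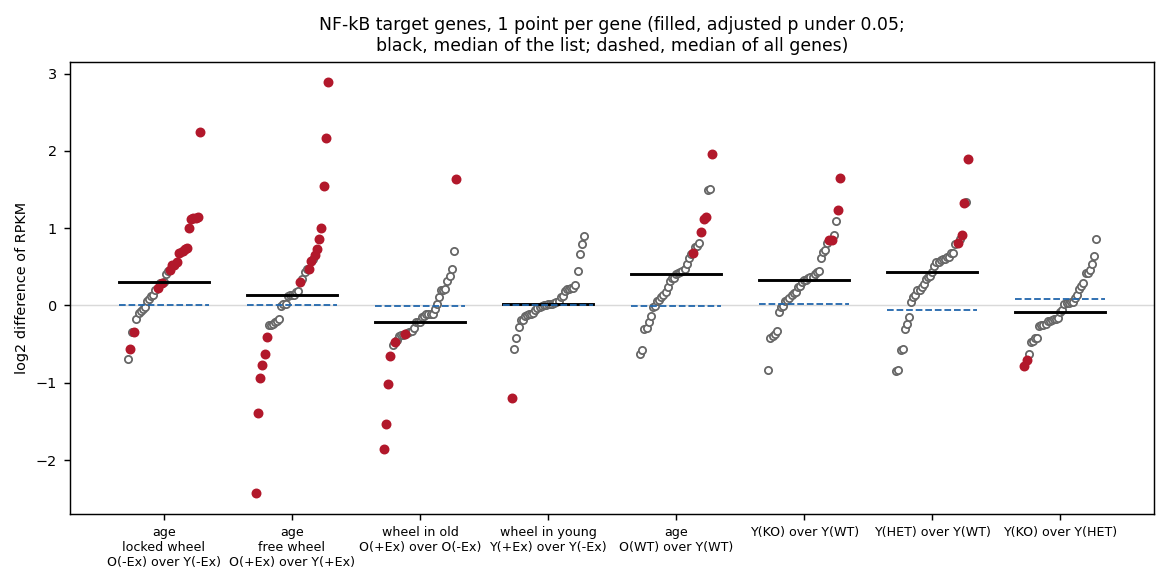
Log2 difference of RPKM (y axis) of the 35 NF-kB target genes found, 1 point per gene, in 8 comparisons (x axis), filled where the adjusted p by limma was under 0.05. The black line is the median of the list, 0.30 for O(-Ex) over Y(-Ex) and -0.21 for O(+Ex) over O(-Ex), and the dashed line the median of all genes.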

How the data were processed

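The authors deposited 1 table of 11337 genes by 36 libraries without zeros. Its values were read as RPKM from the deposited numbers, because value times exon length summed to 958293 to 1204770 per library. A second deposited column, the authors' correlation with Ccnd1, is a score. Per the submitters' processing notes, Trim Galore, STAR, featureCounts (Subread) and mm10 were used. No source used here says how they adjusted the values.

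Log2 values without a pseudocount were fitted with limma 3.58.1 in R 4.3.3, with 1 mean per group in each cohort of 4 groups, eBayes with trend and robust settings, and Benjamini-Hochberg adjustment over all genes. Calls were made at an adjusted p under 0.05. The fits do not allow for the 6 missing directions of variation, so p-values are approximate. The share of a contrast in those directions was 28.4% for age with a locked wheel, 12.0% for the wheel in old, 10.2% for the wheel in young, 10.4% for their difference, 61.2% for age in WT, 38.3% for KO and 35.1% for HET over WT, and nil for age with a free wheel and for KO over HET. Error terms are SD between mice or SE of the fit. The script was tested on simulated data. Alternatives were a pseudocount of 1, a minimum mean of 1 RPKM, another scaling, other samples or variance models in the fit, a replicate block and omission of each library. All 9 members are described. Of 2 further lists, up to 2 called genes per direction with the lowest p were named in each comparison, with Rel, Nfkbib, Nfkbid, Ikbkb, Ikbkg, Chuk and Map3k14, and for each member the 3 genes most like it. Il6, Map3k14 and Zc3h12a recur under this rule. Members and lists were chosen with earlier results of these data known. Figures and tables used Python 3.11.15 with numpy 2.4.6, pandas 2.3.3 and matplotlib 3.10.9.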

Additional observations from a re-analysis of the deposited data

Results flagged for a closer look

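In 4 of 45 groups of 4 to 10 libraries (9 members), 1 library stood far from the rest by Dixon's criterion, which chance alone gives in about 1 group in 20. Nfkb2 was at 189.5 RPKM in Y(-Ex) replicate 4, where the other 5 libraries of that group lay between 88.1 and 114 RPKM. It was at 100.1 RPKM in Y(HET) replicate 3, below the other 3 libraries at 127.6 to 131 RPKM. Nfkbia was at 1802 RPKM in O(+Ex) replicate 3, above the other 4 at 1432 to 1515 RPKM. It was at 2371 RPKM in Y(KO) replicate 3, above the other 4 at 1400.5 to 1638 RPKM. The same KO library was the highest of its group for Nfkb1 (91.0 RPKM), Nfkbiz (114 RPKM), Bcl3 (95.1 RPKM) and Tnfaip3 (53.5 RPKM), and the lowest for Nfkbie (53.3 RPKM).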

How the results depend on the processing

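Of the alternatives, 1315 gave the same direction and call, 24 lost a call, 14 gained one, and 42 turned a sign, in no case for a value that passed the test in either fit. Members called for the wheel in old mice numbered 1 in place of 2 with all 36 libraries in 1 fit, with only the groups compared and without trend and robust settings, Bcl3 being lost in each. Leaving out single libraries gave 3 to 4 calls for age with a locked wheel, 5 to 6 for age with a free wheel, 1 to 3 for the wheel in old and 0 to 1 each for the wheel in young, O(WT) over Y(WT), Y(HET) over Y(WT) and Y(KO) over Y(HET). For O(WT) over Y(WT) 1 call remained without trend and robust settings (Relb lost). With all 36 libraries 1 call appeared in Y(HET) over Y(WT) (Nfkbia), 1 in Y(KO) over Y(HET) (Nfkbiz), and O(WT) over Y(WT) had 3 calls, Nfkbia being added (adjusted p 0.0312).

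Whether same-numbered libraries pair was not settled by the correlations of their deviations. These were over 0.1 in 4 of 5 cases for the wheel in old mice (up to 0.30) and in at most 1 elsewhere. For the wheel in old mice 6 of 10 libraries correlated best with their own number. It was 4 of 6 each for age with a free wheel and the wheel in young, and at most 3 libraries in any other comparison. With a replicate block 1 of 2 calls was left for O(WT) over Y(WT) (Nfkb1 lost, adjusted p 0.072), Nfkbiz gained a call for the wheel in old (-0.48, adjusted p 0.0258), and signs turned to -0.038 (Rela, difference of wheel effects), 0.015 (Bcl3, KO) and -0.011 (Nfkbie, HET).

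Signs of values near 0 turned over the omissions, which ranged as follows. In the wheel cohort they gave -0.042 to 0.15 (Tnfaip3, age locked), -0.15 to 0.036 (Nfkbie, wheel old), -0.11 to 0.11 (Nfkb2), -0.024 to 0.17 (Nfkbia) and -0.060 to 0.050 (Bcl3) for the wheel in young, and -0.092 to 0.081 (Nfkb1) and -0.0069 to 0.094 (Rela) for the difference. In the Ccnd1 cohort they gave -0.072 to 0.039 (Rela) and -0.24 to 0.052 (Nfkbiz) for age, -0.085 to 0.022 (Rela), -0.28 to 0.0070 (Nfkbiz) and -0.23 to 0.082 (Bcl3) for KO, and -0.11 to 0.13 (Nfkbie) and -0.14 to 0.17 (Bcl3) for HET. Another scaling shifted the median of all genes by at most 0.089 on the log2 scale.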

Other observations

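Summed over Nfkb1, Nfkb2, Rela and Relb, the make-up of the subunit transcripts differed between groups. These shares were chosen for description after their values were seen, and no test was made of them. Nfkb1 made up 17.4% ± 1.68 of the sum in O(-Ex) and 10.4% ± 1.32 in Y(-Ex), and 13.8% ± 1.79 in O(+Ex) and 7.95% ± 0.642 in Y(+Ex) (SD). Rela made up 43.2% ± 1.73 in O(-Ex) and 50.01% ± 5.99 in Y(-Ex). In the Ccnd1 cohort the Rela share was 46.9% ± 4.18 in Y(KO), 42.9% ± 2.06 in Y(HET) and 52.4% ± 2.41 in Y(WT). The ratio of Relb to Rela spanned 0.217 to 0.359 over 5 libraries in Y(KO) and 0.368 to 0.395 over 4 libraries in Y(HET), against 0.221 to 0.277 over 3 libraries in Y(WT).

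Otulin, a deubiquitinase that removes linear ubiquitin chains, averaged 8.56 ± 1.40 RPKM in O(WT), 8.20 ± 0.730 RPKM in Y(KO), 5.11 ± 0.637 RPKM in Y(HET) and 4.36 ± 0.605 RPKM in Y(WT) (SD). It was called higher by limma in O(WT) over Y(WT), in Y(KO) over Y(WT) and in Y(KO) over Y(HET) (adjusted p = 0.00126, 0.00592 and 0.00571), and the comparisons with Y(WT) share those libraries.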
